A study of Rattus norvegicus with 8 samples.

Results

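Vim and Gfap encode vimentin and glial fibrillary acidic protein, the main intermediate filament proteins of glia. They are 2 of the 32883 Ensembl gene identifiers in a table of rat spinal cord RNA, ENSRNOG00000018087 (Vim) and ENSRNOG00000002919 (Gfap), and both passed the filter on low counts that left 3073 genes. They were picked by identifier, with their levels in injured and uninjured cord already known, so the difference between the groups is described here without a test. The 8 libraries came from Sprague Dawley rats, with no genotype, transgene or drug named. In the injured group (4 libraries) cord was collected 4 days after one side of the cord was cut at thoracic level 9, and in the uninjured group (4 libraries) the rats had no spinal cord injury. The series title names upper lumbar cord, which lies below the cut, whereas the sample labels say only upper spinal cord. The labels used here name no age, sex, sham surgery or pooling of animals, nor do they say that each library is a separate rat, so the spread between libraries may be partly technical. The table pairs no identifier with a gene name, and the names Vim and Gfap came with the definition of the members. Markers of astrocytes and of other cell types were not analysed here.

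Libraries were made by CEL-Seq2, which tags each captured transcript at its 3' end with a random unique molecular identifier (UMI) and counts distinct tags. Injured libraries held 195113 to 320199 UMIs and uninjured libraries 112264 to 221177. Levels are given in CPM, the UMI count of a gene per 1000000 UMIs of its library. Each transcript is tagged at its 3' end, so its length does not enter the count, and the 95% exact binomial (Clopper-Pearson) intervals given for single libraries cover counting error only.

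Intermediate filaments are rope-like polymers that give cells mechanical strength. Gfap is the classical marker of astrocytes, the glia that surround synapses and vessels. Vim is made by immature and reactive astrocytes, and also by ependymal cells, endothelium, fibroblasts and macrophages. Vimentin and Gfap can form mixed filaments, and a rise of both is a well known feature of reactive astrocytes after injury to the central nervous system. In RNA from whole tissue, more cells of a type and more RNA per cell cannot be told apart.

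The sequences just upstream of the start of each gene are shown because both genes were higher in the same libraries, so that their promoters can be compared. They are the 250 bases before the RefSeq start in build GRCr8, chr17:81577011-81577260 on the plus strand for Vim and chr10:88361662-88361911 on the minus strand for Gfap. Capitals mark matches to any of the 6 motifs searched on both strands.
Vim: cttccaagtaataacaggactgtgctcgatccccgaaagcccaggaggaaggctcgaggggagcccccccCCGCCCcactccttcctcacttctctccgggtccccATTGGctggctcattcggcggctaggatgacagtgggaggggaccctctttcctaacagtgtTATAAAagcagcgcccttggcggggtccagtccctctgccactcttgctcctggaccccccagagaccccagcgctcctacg
Gfap: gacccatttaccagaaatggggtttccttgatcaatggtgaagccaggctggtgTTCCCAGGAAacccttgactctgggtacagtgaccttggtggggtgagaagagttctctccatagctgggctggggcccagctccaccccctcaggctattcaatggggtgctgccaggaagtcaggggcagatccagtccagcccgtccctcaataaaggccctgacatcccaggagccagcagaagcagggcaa
The Vim window matched the letters of a TATA box (TATAAA, 82 to 77 bases before the start). It also matched those of a CCAAT box on the opposite strand (ATTGG, 144 to 140 bases before). A GC box was matched on the opposite strand (CCGCCC for GGGCGG, 180 to 175 bases before). Over 33465 RefSeq promoter windows of the same length, TATAAA was found in 12.9%, CCAAT in 34.0% and GGGCGG in 30.5%. The Gfap window held no exact match to these, and looser matches were not searched. It held 1 match to TTCNNNNGAA, an element of the kind bound by STAT transcription factors, as TTCCCAGGAA at 196 to 187 bases before the start. That motif was found in 6.25% of windows. Neither window matched TTCNNNGAA, the STAT element with the shorter spacer (7.67% of windows), or TGANTCA, the AP-1 site (6.34%). None of the 6 motifs was found in both windows. The Vim window had 62.4% G and C, and the Gfap window 57.6%. The matches describe letters in these windows and say nothing of binding.

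Vim had low counts in uninjured libraries, and its level was several times higher in every injured library. Injured libraries 1 to 4 held 146, 167, 134 and 135 Vim UMIs, and uninjured libraries 1 to 4 held 18, 6, 16 and 21. Scaled to library totals, the injured values were 535, 522, 528 and 692 CPM. The uninjured values were 81.4, 53.4, 119 and 154 CPM. Injured library 4 stood above the other injured libraries, which lay within a narrow band. Its counting interval, 580 to 819 CPM, overlapped theirs, whose upper ends were 629, 607 and 626 CPM. The groups did not overlap: the lowest injured level was 3.38 times the highest uninjured one. A separation in that direction was seen for 7.52% of the 3073 tested genes. Since the gene was chosen from this contrast, nothing is read from it. The mean was 569 ± 82.0 CPM with injury and 102 ± 44.0 CPM without it (SD, n = 4 each). The difference in mean log2 CPM was 2.53 (SE 0.33), a 5.76-fold higher geometric mean.

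The Vim counts of uninjured libraries were low. The 6 UMIs of uninjured library 2, the shallowest, leave an interval of 19.6 to 116 CPM. In uninjured library 4 the interval was 95.6 to 236 CPM, and in injured library 2, the lowest of its group, 446 to 607 CPM. The intervals of uninjured libraries 2 and 4 thus overlapped, while none of the 4 uninjured intervals reached those of the injured libraries. Between libraries the coefficient of variation was 43.1% in uninjured and 14.4% in injured cord. At an equal depth of 112264 UMIs, injured libraries would hold 57 to 77 Vim UMIs and uninjured libraries 6 to 17 (medians of 11 random draws).

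Gfap was abundant in uninjured cord already, and it was higher after injury by a smaller factor. Injured libraries 1 to 4 held 1024, 1136, 791 and 554 Gfap UMIs, and uninjured libraries 1 to 4 held 409, 91, 179 and 187. The injured values were 3753, 3548, 3118 and 2839 CPM. The uninjured values were 1849, 811, 1331 and 1375 CPM. Again no uninjured library reached an injured one, but the gap was smaller than for Vim: injured library 4, the lowest of its group, was 1.53 times uninjured library 1, the highest of the other. The raw counts show how much depth matters here, since 554 and 409 UMIs in these libraries came from totals of 195113 and 221177. The mean was 3314 ± 413 CPM with injury and 1341 ± 425 CPM without it (SD, n = 4 each). The difference in mean log2 CPM was 1.35 (SE 0.26), a 2.55-fold higher geometric mean.

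**Figure D1:**
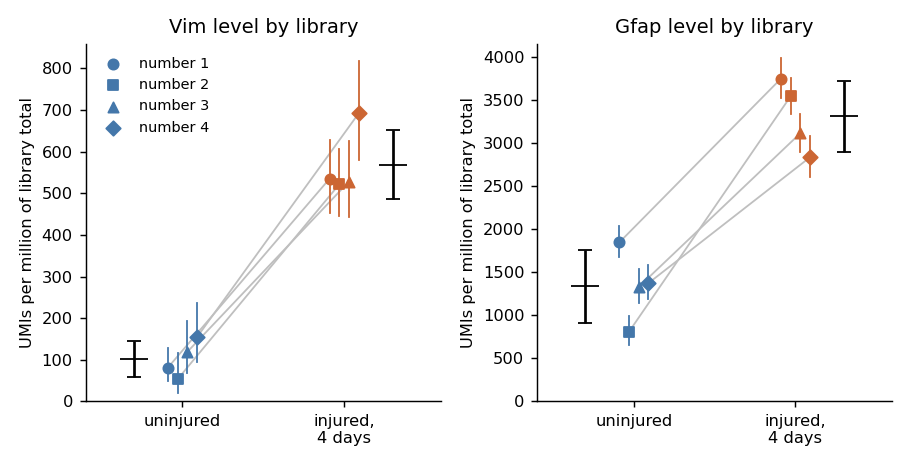
Level of Vim (left) and Gfap (right) in each library, in CPM of the library total. Symbols are libraries by the number in their title, coloured lines are 95% counting intervals, grey lines join libraries of the same number, and black bars are mean and SD of 4 libraries. For both genes every injured library lies above every uninjured one, the nearest libraries being at 522 and 154 CPM for Vim and at 2839 and 1849 CPM for Gfap.

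Uninjured library 2 was the lowest library for both genes and the shallowest of the series. Without it the log2 difference was 2.27 for Vim and 1.13 for Gfap. Uninjured library 1 was the highest uninjured library for Gfap yet the next to lowest for Vim, and injured library 4 was the highest injured library for Vim and the lowest for Gfap. The genes therefore did not order the libraries alike within a group. By rank among all genes of a library, Gfap was between the 59th and 153rd most counted gene in uninjured cord and between the 24th and 30th in injured cord. Vim was between the 937th and 2510th in uninjured cord, where 7750 to 9168 genes were detected per library. In injured cord it was between the 202nd and 293rd. Together both genes took 0.388% ± 0.0355 of all UMIs in injured and 0.144% ± 0.0440 in uninjured libraries (SD, n = 4 each).

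CEL-Seq2 commonly uses tags of 6 bases, of which there are 4 to the power of 6, so a gene cannot exceed that count in a library if tags of that length were used. The tag length is not stated in the labels, but the highest count in the table was 4047, just under that number, and 0 counts reached it. Neither member was near it. The highest Gfap count, 1136 in injured library 2, was 27.7% of the possible tags, and the lowest injured one, 554 in library 4, was 13.5%. The highest Vim count, 167, was 4.08%. If tags are drawn evenly, 1136 distinct tags correspond to 1330 molecules, 17.1% more than counted. The same correction adds 15.1%, 11.1% and 7.44% to Gfap in injured libraries 1, 3 and 4, and 1.13% to 5.35% in the uninjured libraries. For Vim it adds at most 2.10%. Applied to every gene and library total, it changed the log2 difference of Gfap from 1.35 to 1.51 and that of Vim from 2.53 to 2.57. The deposited counts thus give the smaller of both values for each gene.

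**Figure D2:**
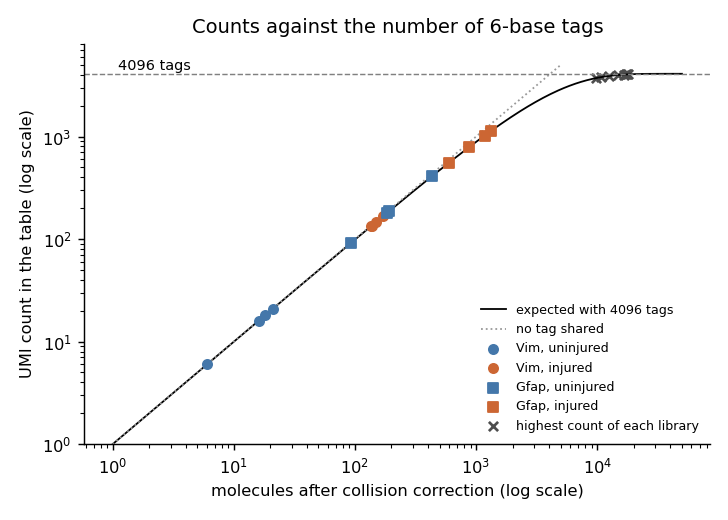
UMI count in the table against the number of molecules after correction for shared tags, both on log scales, for Vim (circles), Gfap (squares) and the highest count of any gene in each library (crosses). The Gfap counts of injured libraries, 554 to 1136, leave the dotted line of equality slightly, while the Vim counts stay on it and the highest counts of each library, 3727 to 4047, lie on the plateau set by the number of tags.

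Relative to Gfap, Vim was higher in the injured libraries, a comparison that needs no scaling because both counts come from the same library. Injured libraries 1 to 4 held 7.01, 6.80, 5.90 and 4.10 Gfap UMIs per Vim UMI. Uninjured libraries 1 to 4 held 22.7, 15.2, 11.2 and 8.91. The groups did not overlap, with uninjured library 4 nearest to the injured ones. Its counting interval, 5.66 to 14.7, included the ratios of injured libraries 1, 2 and 3, and those of uninjured libraries 2 and 3, 6.70 to 42.4 and 6.70 to 20.0, included the ratios of injured libraries 1 and 2. The interval of uninjured library 1, 14.2 to 38.7, lay above those of all injured libraries, and that of injured library 4, 3.39 to 4.99, lay below those of all uninjured libraries. The log2 ratio of Vim to Gfap was -2.54 ± 0.35 in injured and -3.71 ± 0.58 in uninjured cord (SD, n = 4 each), a difference of 1.17 (SE 0.34) or 2.25-fold. With the correction for shared tags the difference was 1.06. It is described without a test, since it comes from the contrast that chose the genes.

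**Figure D3:**
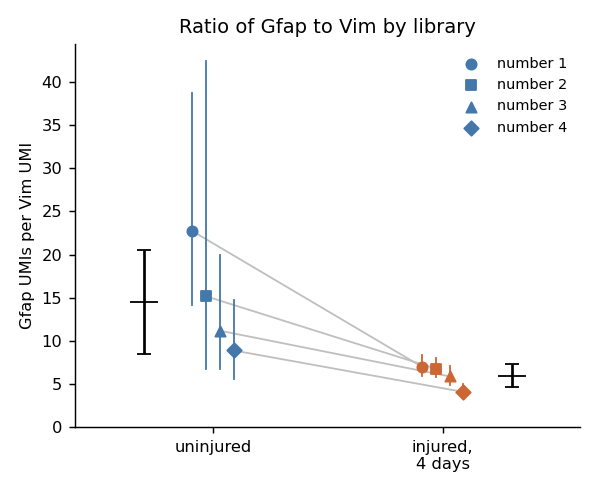
Gfap UMIs per Vim UMI in each library, with 95% counting intervals (coloured lines), grey lines between libraries of the same number, and mean and SD of 4 libraries in black. The ratio is 4.10 to 7.01 in injured and 8.91 to 22.7 in uninjured libraries, and the wide intervals on the left come from 6 to 21 Vim UMIs.

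Injured and uninjured libraries carry the numbers 1 to 4 in their titles, and libraries of the same number resembled each other across genes, as described under the processing. Vim was higher in the injured library of each number, by 6.57-fold, 9.76-fold, 4.44-fold and 4.48-fold for numbers 1 to 4. Gfap was higher by 2.03-fold, 4.38-fold, 2.34-fold and 2.06-fold. All 4 numbers had the injured library higher for both genes, as did 19.9% of tested genes. Number 2, with the lowest uninjured library, gave the largest fold for both, and without it the folds ran from 4.44 to 6.57 for Vim and from 2.03 to 2.34 for Gfap. Library 4 was the highest for Vim within each group, with log2 deviations from the group mean of 0.29 in injured and 0.68 in uninjured cord. Library 1 was the highest for Gfap within each group, with deviations of 0.19 and 0.52. Library 2 was the lowest for Vim in both groups (-0.12 and -0.77), but for Gfap it was above the injured mean (0.11) and below the uninjured mean (-0.66). For Vim these places lie partly within counting error. Injured libraries 1 to 3 held 535, 522 and 528 CPM with overlapping intervals, and the intervals of all uninjured libraries overlapped each other.

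Over all 3073 tested genes the median log2 difference in CPM of library totals was 0.09, while in the edgeR fit with TMM scaling, which sets the bulk of genes level, the median log2 fold change was -0.03. Relative to these medians, the difference of Vim was 2.43 with library totals and 2.37 in the edgeR fit, and that of Gfap 1.26 and 1.20. The fitted log2 fold change itself was 2.34 (SE 0.30) for Vim and 1.17 (SE 0.23) for Gfap. With the number as a block it was 2.37 (SE 0.20) and 1.20 (SE 0.15). Without the block edgeR called 66 genes higher, 2.15% of those tested, and 4 lower, 0.13% (quasi-likelihood test at a Benjamini-Hochberg adjusted p under 0.05). With the block it called 206 higher, 6.7%, and 145 lower, 4.72%. By log2 difference in CPM, Vim was the 11th highest of all tested genes and Gfap the 101st. Of the 35 tested genes with a higher mean level than Gfap, 0 had a larger difference, and the highest among them was 0.94. Of the 463 genes with a higher mean level than Vim, 1 had a larger difference, 3.39. Both comparisons are limited by the number of tags, since the highest count of each library, 3727 to 4047, lay near it. A count held there gives a lower CPM where the library total is larger, as in most injured libraries. Differences of genes with counts near the number of tags could thus be lowered. The difference of Gfap itself was also higher with corrected counts, 1.51 against 1.35. How far this changes the comparisons was not tested, since they were not repeated with corrected counts. These places are a description, chosen after the values were seen.

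**Figure D4:**
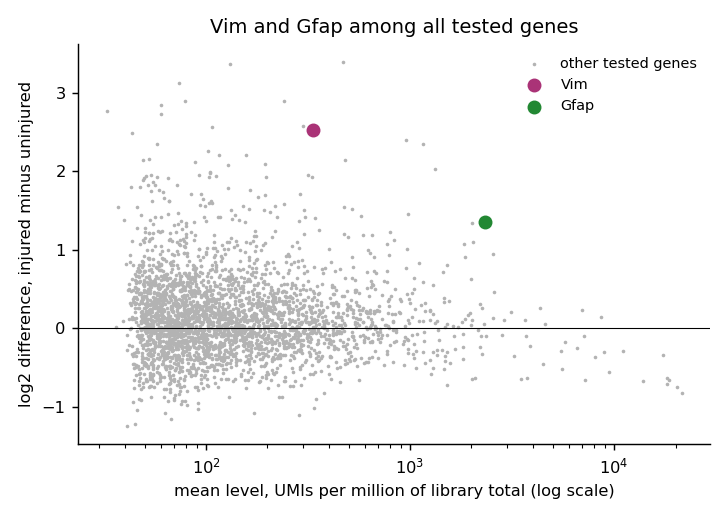
Log2 difference in level, injured minus uninjured, against mean level on a log scale for the 3073 tested genes (grey), with Vim and Gfap in colour. Gfap lies at 1.35, the 35 genes to its right at 0.94 or lower, and Vim at 2.53 is among the highest differences at any level. Counts near the number of tags could lower the differences of the most abundant genes, which was not tested.

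The genes whose pattern over the 8 libraries was most like each member were sought by the root mean square difference of log2 CPM, each gene centred on its own mean. The gene nearest to Vim was ENSRNOG00000011821, at a root mean square difference of 0.26, against a median of 1.36 over all tested genes. Its level was 1187 to 1930 CPM in injured and 223 to 404 CPM in uninjured libraries. The gene nearest to Gfap was ENSRNOG00000010747, at 0.16 against a median of 0.82, with levels of 110 to 181 CPM in injured and 26.7 to 85.9 CPM in uninjured libraries. Its mean count over the libraries was only 24 UMIs, so its levels carry a wide counting error. Vim and Gfap themselves differed by 0.72, which made Gfap the 49th nearest gene to Vim and Vim the 916th nearest to Gfap. The values compared share library, depth and injury group, and both members were chosen for their difference between the groups.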

How the data were processed

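RNA of 8 spinal cord libraries was measured. Per the labels' protocols, tissue was flash frozen and libraries followed CEL-Seq2 on an Illumina HiSeq1500. Values are UMI counts for each Ensembl identifier, deposited as whole numbers without scaling. HISAT2 2.0.4, HTSeq 0.6.0 and build Rnor_6.0 are named, per the submitters' processing notes. The annotation release, the collapsing of UMIs and the strand setting are not given there, so reads of overlapping genes or near-identical copies may be shared. Columns were matched to samples by the code that titles and column names share, and 0 columns were left over. Of the identifiers, 0 matched the RefSeq gene table of GRCr8. The names Vim and Gfap come with the identifiers that define the members, and the promoter sequences were found by these symbols for both. The 14 gene lists drawn up by symbol were therefore not analysed here.

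Log2 CPM used a prior count of 0.5 and library totals. The fit over all genes used R 4.3.3 and edgeR 4.0.16: filterByExpr by group (minimum count 10, minimum total 15), TMM, glmQLFit and glmQLFTest, without a block. SEs of the fit are the fold change (log2) over the square root of F. It was tested on simulated data. Alternatives were other scalings, DESeq2 1.42.0, no filter, thinning, tag correction, the block and leaving out each library.

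Same-number libraries were taken as pairs if, in each pair, deviations from the group means correlated above 0.1. Across tested genes, which are not independent, the correlations were 0.389, 0.297, 0.342 and 0.423 (other combinations -0.311 to 0.241). The numbers come from the titles and the decision from the data. The SEs of differences in group means, and the main fit, nevertheless treat the libraries as unpaired. Members, lists and the rule for named genes (both members, list genes past the test, and the genes of most similar pattern, at most 2 identifiers without a name per direction) were chosen with earlier results of these data known.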

Additional observations from a re-analysis of the deposited data

Results flagged for a closer look

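Of 12 sets of 4 libraries examined, 1 had a library far from the others, where chance gives about 1 in 20 for each set. With 12 sets drawn from the same libraries, 1 such case is not unusual. Injured library 4 held Vim at 692 CPM, against 522 to 535 CPM in the other injured libraries, a gap of 0.921 of the whole range. Its counting interval, 580 to 819 CPM, overlapped the intervals of all other injured libraries. Injured library 4 was also the shallowest injured library, with 195113 UMIs, and had the lowest Gfap level of its group. The part of depth in this was not tested. At equal depth this library held 77 Vim UMIs, against 57 to 58 in the others. Thinning keeps each gene's expected share of its library, so these counts cannot show the part of depth. Without injured library 4 the log2 difference of Vim was 2.43.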

How the results depend on the processing

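The log2 differences of Vim, Gfap and their ratio kept their direction in all alternatives run. They moved by less than 1 SD between libraries, pooled over both groups. For leaving out 1 library this outcome was fixed in advance. Dropping 1 of 4 libraries cannot shift a group mean by that much, and the groups did not overlap. Thinning to equal depth keeps each gene's expected share of its library, so its outcome was also largely fixed. Against the smaller SD of injured libraries alone (0.20 for Vim, 0.18 for Gfap), Vim moved by more without uninjured 2 or 4, and Gfap without uninjured 2 and, barely, in the edgeR fit. Beyond leaving out a library, Vim ran from 2.34 (edgeR fit) to 2.57 (tag correction), Gfap from 1.17 to 1.51 (likewise), and the ratio from 1.06 (tag correction) to 1.24 (equal depth). Leaving out 1 library gave 2.27 (without uninjured 2) to 2.75 (without uninjured 4) for Vim, 1.13 (without uninjured 2) to 1.53 (without uninjured 1) for Gfap and 0.92 (without uninjured 1) to 1.37 (without uninjured 4) for the ratio. With the replicate block the mean of the 4 paired differences equals the unpaired one by construction, at 2.53, 1.35 and 1.17.

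Over all genes, 66 higher and 4 lower calls came from 3073 tested genes. Calls changed more than 1.5 times under the replicate block (206 and 145 of 3073). They also did so when low counts were not filtered (190 and 9 of 12612), though the shares called were then not larger. Higher calls also moved with library totals only (105 of 3073), and lower calls with DESeq2 on all genes (19 of 4330 with an adjusted p). Leaving out 1 library gave 35 to 100 higher calls (3107 to 3470 genes tested). They moved by over 1.5 times without injured 1 (40), injured 4 (100), uninjured 1 (35), uninjured 2 (39) and uninjured 3 (35). Lower calls ran from 0 to 14: 0, 1, 1 and 12 without injured 1 to 4, and 10, 1, 0 and 14 without uninjured 1 to 4 (edgeR, with 136 and 164 lower genes at an unadjusted p under 0.05 where it called 0, and 19 called by DESeq2 with all libraries). The cause of these moves was not tested. Vim rests on 6 to 21 UMIs per uninjured library.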
